A study of Homo sapiens with 6 samples.

Results

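DNA replication and S phase genes were followed on 6 expression arrays of HEK293, a cell line that comes from human embryonic kidney. The group holds 51 genes, taken as all probe sets on the array whose gene name, or another symbol of the same Entrez gene, is on a list of replication factors and S phase regulators. These genes had 96 of the 45033 probe sets and are 51 of 23595 named genes. Of the 51, 47 genes with 86 probe sets were bright enough to be tested, and CCNE2, GINS1, POLE2 and RFC1 were not. Names follow current symbols, so the array's ORC1L to ORC6L and CDC45L appear as ORC1 to ORC6 and CDC45. The genes fall into 7 roles, and unless a probe set is named, values are for the brightest probe set of a gene.

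The arrays form 3 groups of 2. The first group carried a SET8 shRNA and received Wnt3a conditioned medium, the second carried a control shRNA and received Wnt3a conditioned medium, and the third carried a control shRNA and received control conditioned medium. All cells were HEK293 cells that had been transfected with an shRNA (the labels use both shRNA and siRNA for it) for about 40 hours and then kept in conditioned medium for 7 hours. The SET8 shRNA in control medium is not analysed here. Its effect without Wnt3a and an interaction with Wnt3a could thus not be tested. The labels do not call the replicates separate cultures. The p-values therefore cover only the spread among these arrays, which may be technical.

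Replication starts when the origin recognition complex, with CDC6 and CDT1, loads the MCM2 to MCM7 helicase on DNA in G1. In S phase, cyclin E with CDK2 and the CDC7 kinase turn the loaded helicase into an active one by adding CDC45 and GINS, after which the polymerases copy the DNA around the sliding clamp PCNA. Many of these genes are transcribed at the G1/S boundary under the E2F factors. SET8, now named KMT5A, is the enzyme that adds the first methyl group to lysine 20 of histone H4, and in S phase it is destroyed through PCNA and the CRL4-Cdt2 ubiquitin ligase. Wnt3a is a secreted ligand that stabilises beta-catenin, and the study asked what SET8 does for Wnt target genes.

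The promoters of 4 genes are printed for the motifs they hold: RRM2 and CCNE1, which had the lowest differences between the SET8 and control shRNA, and E2F1 and MCM6, which hold E2F-type words and belong to the factors that bind such words and to the helicase. Each is the 250 bases before the RefSeq start on GRCh38.p14, read 5′ to 3′ on the strand of the gene. Capitals mark CCAAT in RRM2 (chr2:10122489-10122738, plus strand), GGGCGG or its complement CCGCCC in CCNE1 (chr19:29811741-29811990, plus strand), and E2F-type words in E2F1 (chr20:33686386-33686635, minus strand) and MCM6 (chr2:135876444-135876693, minus strand).
RRM2: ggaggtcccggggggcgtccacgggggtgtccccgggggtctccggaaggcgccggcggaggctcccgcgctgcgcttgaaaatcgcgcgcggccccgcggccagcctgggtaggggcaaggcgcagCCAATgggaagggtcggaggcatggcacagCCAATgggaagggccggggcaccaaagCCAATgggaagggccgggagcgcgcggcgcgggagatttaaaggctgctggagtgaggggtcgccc
CCNE1: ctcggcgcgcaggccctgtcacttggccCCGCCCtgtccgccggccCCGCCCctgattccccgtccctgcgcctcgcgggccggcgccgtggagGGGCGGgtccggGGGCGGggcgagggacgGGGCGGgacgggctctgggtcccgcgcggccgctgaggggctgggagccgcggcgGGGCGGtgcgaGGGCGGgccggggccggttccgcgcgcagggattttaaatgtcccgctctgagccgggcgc
E2F1: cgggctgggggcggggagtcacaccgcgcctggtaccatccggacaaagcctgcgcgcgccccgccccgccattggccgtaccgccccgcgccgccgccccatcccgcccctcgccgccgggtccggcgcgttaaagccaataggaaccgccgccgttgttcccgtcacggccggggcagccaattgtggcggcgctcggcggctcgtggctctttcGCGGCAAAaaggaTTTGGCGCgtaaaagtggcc
MCM6: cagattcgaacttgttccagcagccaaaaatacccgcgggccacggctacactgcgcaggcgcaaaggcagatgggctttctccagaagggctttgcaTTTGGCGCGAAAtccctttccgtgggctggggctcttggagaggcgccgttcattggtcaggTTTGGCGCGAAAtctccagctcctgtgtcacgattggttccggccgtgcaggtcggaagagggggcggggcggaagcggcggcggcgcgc
The RRM2 window has 3 CCAAT boxes, starting 66 to 123 bases before the start, and none of the E2F-type words searched. The CCNE1 window has 7 GC boxes and also none of these words. E2F1 has 2 words, 20 and 33 bases before the start. MCM6 has 4 words that overlap in 2 stretches, starting 86 to 152 bases before the start. RRM2 has 2 RefSeq starts, of which 1 is shown.

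The words searched were TTTGGCGC, TTTCGCGC, TTTCCCGC and TTTGCCGC for E2F factors, CCAAT for the factor NF-Y, and GGGCGG for the GC box bound by SP1, on both strands, in windows of 300 bases that also hold 50 bases after the start. Of the 51 genes, 45 matched a promoter in the RefSeq table, with 58 promoters in all. CCNE2, CDK2, MCM4, MCM5, RPA2 and RPA3 had no entry. At least 1 E2F-type word stood in 24 of the 58 promoters (41.4%), against 14 of 56 (25.0%) for other replication genes and 1164 of 35116 (3.3%) for all promoters of the table. By gene, 23 of 45 had one (51.1%). CCAAT stood in 58.6% of the promoters of the group, 42.9% of those of the other replication genes and 34.6% of all. The GC box stood in 77.6%, 75.0% and 45.0%, in the same order. A match is a string of letters and not a measured binding site.

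**Figure D1:**
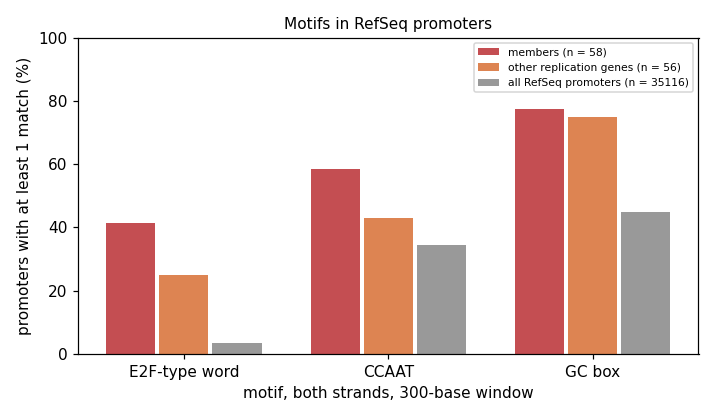
Share of RefSeq promoters (vertical axis, percent) with at least 1 match to 3 motifs on either strand of a 300-base window, for the replication and S phase genes (58 promoters), other replication genes (56) and all promoters (35116). The E2F-type words stood in 41.4%, 25.0% and 3.3%.

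The targeted mRNA was lower on both arrays labelled SET8 shRNA. KMT5A (probe set AY064546) had log2 intensities of 8.97 and 9.65 with SET8 shRNA in Wnt3a medium, 11.20 and 10.53 with control shRNA in Wnt3a medium, and 11.03 and 10.75 with control shRNA in control medium. The difference between the shRNAs was -1.56 (SE 0.34), or 2.94-fold, and limma with Benjamini-Hochberg adjustment over all probe sets gave it an adjusted p of 0.236. It was smaller on the further probe set NM_020382, at -1.11 (SE 0.28) or 2.16-fold, with a limma adjusted p of 0.326. All 9 HEK293 markers on a list were bright enough to test, against 3 of 8 fibroblast, 3 of 7 blood cell and 0 of 4 endothelial markers. The summed intensity of the blood cell markers was 1149 to 1187 on the SET8 shRNA arrays, 2162 to 2341 on the control shRNA arrays in Wnt3a medium and 1732 to 2315 in control medium. The fibroblast sum was 4608 to 5008, 6237 to 7135 and 6004 to 6456 in the same order, and was carried by the collagen gene COL1A1. Without COL1A1 it was 374 to 536, 487 to 533 and 1075 to 1232. Between Wnt3a and control medium, 6 of the 8 fibroblast markers had the lower mean in Wnt3a medium, against 6015 of 13070 genes. COL1A2 was at -1.58, COL3A1 at -0.85, COL6A3 at -1.73, DCN at -2.09, PDGFRB at -0.45 and POSTN at -1.79. COL1A1 at 0.28 and LUM at 0.21 were higher. Of these probe sets, only those of COL1A1 and COL3A1 were bright enough to test. Further probe sets ran from -2.29 (COL1A2, BC042586) to 0.52 (LUM, NM_002345), with COL3A1 at -0.04 (BC028178). The endothelial sum was 226 to 244, 282 to 476 and 394 to 450 in the order of the other sums. The part of these markers in the results was not tested. Of all tested probe sets, 1.86% lay more than 2-fold apart between replicates with SET8 shRNA, 8.98% with control shRNA in Wnt3a medium and 6.87% in control medium, so the control shRNA arrays were the more variable ones. In RNA from whole cultures, fewer cells in S phase and less of an mRNA per cell cannot be told apart.

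The first comparison set the SET8 shRNA against the control shRNA, both in Wnt3a medium. None of the 47 genes passed an adjusted p of 0.05, and none of the 13070 genes tested did (0.0%). At an unadjusted p under 0.05 stood 1 of 47, CCNE1, against 7.41% of all genes. The group's median log2 fold change was 0.12, against 0.00 for all genes, and 34 of 47 genes (72.3%) had the higher mean with SET8 shRNA, against 50.7%. This median rested on 1 control array: it was 0.01 without Wnt3a replicate 2 and 0.24 without Wnt3a replicate 1. The count of higher genes moved too. Against Wnt3a replicate 1, 22 and 23 of 47 genes were higher on the 2 SET8 shRNA arrays. Against Wnt3a replicate 2, 31 and 33 were. Over all genes the median differences of these pairs of arrays lay between -0.01 and 0.00. The fold changes ran between -0.73 for CCNE1 and 0.87 for RFC3, with an SD of 0.29 across the group and 0.40 across all genes.

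The arrays bound most of these differences within 2-fold. The 95% limma interval of the SET8 difference lay within 2-fold either way for 37 of the 47 genes (78.7%), against 59.9% of all genes. The median interval reached 0.61 to either side on the log2 scale, or 1.53-fold, against 0.65 across all genes. No adjustment for the number of probe sets was made to it. The group was also brighter, with a median log2 intensity of 11.70 against 10.39 for all genes. The part of brightness in this and the other comparisons was not tested. No gene of the group had both SET8 shRNA arrays at least 1.5-fold above or below both control shRNA arrays, where 3.27% of all genes did. Arrays of the groups did not overlap for 13 of 47 genes, 8 higher and 5 lower with SET8 shRNA, against 34.4% of all genes. The 5 lower ones were GINS2, RRM2, CCNE1, CDC7 and MCM5.

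**Figure D2:**
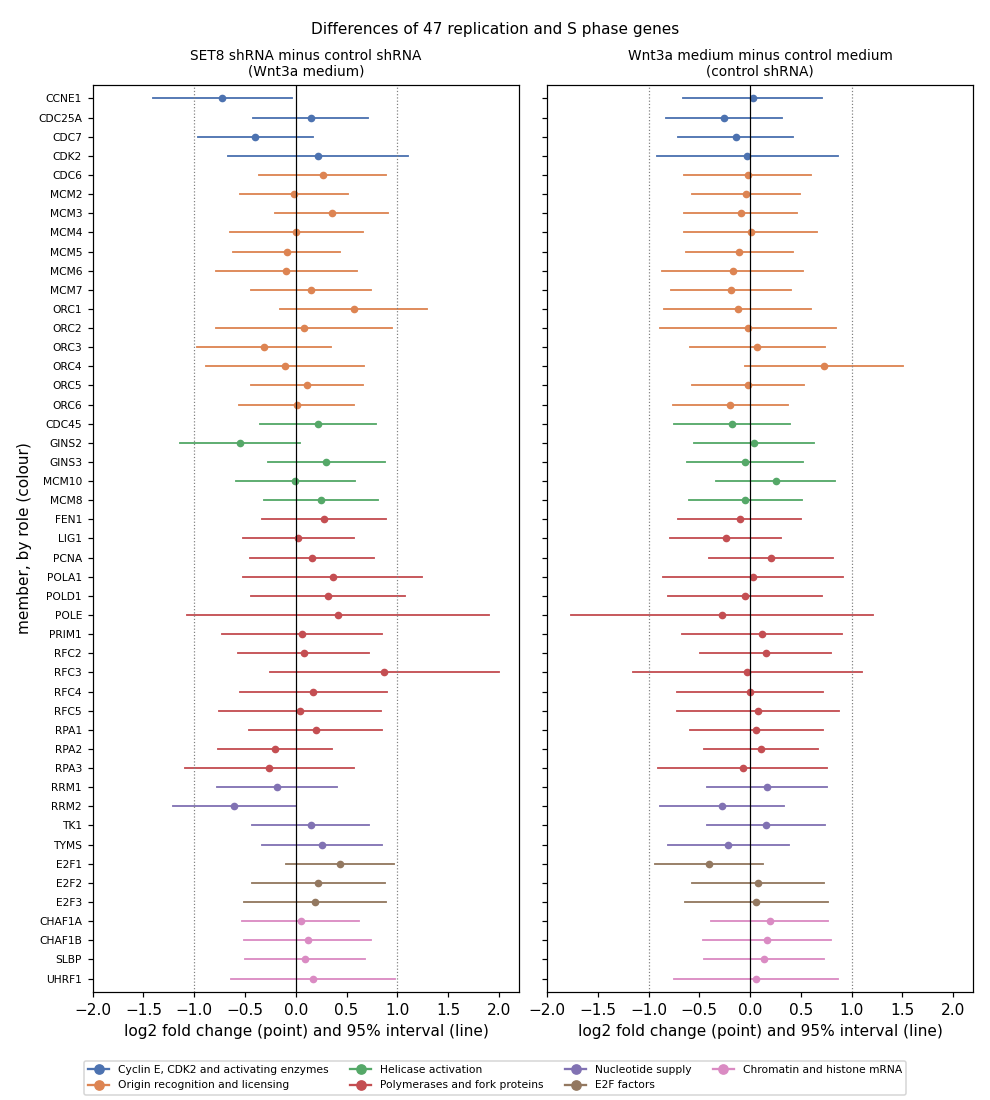
Log2 fold change (point) and 95% limma interval (line) of the 47 genes tested, grouped by role (colour), for the SET8 shRNA against the control shRNA in Wnt3a medium (left) and Wnt3a against control medium with control shRNA (right). Dotted lines mark 2-fold either way. Of the intervals, 37 (left) and 44 (right) lie within them, and CCNE1 has the lowest point on the left, at -0.73.

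Cyclin E drives entry into S phase as the partner of the kinase CDK2. CCNE1 (NM_001238, chromosome 19, 34994740 to 35007059, hg18) had log2 intensities of 10.97 and 11.15 with SET8 shRNA in Wnt3a medium, 12.09 and 11.48 with control shRNA in Wnt3a medium, and 11.96 and 11.56 with control shRNA in control medium. Both SET8 shRNA arrays lay below all 4 control shRNA arrays. The SET8 difference was -0.73 (SE 0.29, n = 2 each), or 1.65-fold lower, with a 95% interval of -1.41 to -0.04. Its unadjusted limma p was 0.0404 and its adjusted p was 0.661, so CCNE1 did not pass over all probe sets. The difference was -0.42 without Wnt3a replicate 1 (unadjusted p of 0.246) and -1.03 without Wnt3a replicate 2 (0.0133). Leaving out the SET8 shRNA arrays in turn gave -0.63 (0.159, replicate 1) and -0.82 (0.0856, replicate 2).

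The other genes that drive origin firing did not share one direction. CDC7, the kinase that phosphorylates the MCM helicase, read 8.72 and 8.997 with SET8 shRNA, 9.23 and 9.28 with control shRNA in Wnt3a medium and 9.24 and 9.56 in control medium. Its SET8 difference was -0.40 (SE 0.24), but its other probe sets (BC110526 and BC111044) gave -0.01 and -0.17. CDK2 was at 0.22 (SE 0.38), with 11.92 and 12.38 on the SET8 shRNA arrays and 12.38 and 11.49 on the control shRNA arrays in Wnt3a medium, which overlapped. CDC25A, the phosphatase that activates CDK2, read 13.22 and 13.30 with SET8 shRNA, 13.02 and 13.21 with control shRNA in Wnt3a medium and 13.19 and 13.56 in control medium. CCNE2, the second cyclin E gene, was too dim to test, at 6.99 and 7.25 with SET8 shRNA, 6.80 and 5.83 with control shRNA in Wnt3a medium and 7.31 and 5.64 in control medium.

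Ribonucleotide reductase makes deoxyribonucleotides, and its small subunit RRM2 is made in S phase. The 2 probe sets of RRM2 cover the same locus on chromosome 2 and both were lower with SET8 shRNA, by amounts that differ. On the brighter one (BC001886, 10180332 to 10187376, hg18), log2 intensity was 10.68 and 10.31 with SET8 shRNA in Wnt3a medium, 11.17 and 11.03 with control shRNA in Wnt3a medium, and 11.19 and 11.57 in control medium. Here too both SET8 shRNA arrays lay below all 4 others, as they did for GINS2, CDC7 and MCM5. The share of all genes with this pattern was not counted. The SET8 difference was -0.60 (SE 0.26), a level 1.52-fold lower, and limma gave a p of 0.0512 and an adjusted p of 0.702.

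On the other probe set of RRM2 (NM_001034, 10180183 to 10188074, hg18), log2 intensity was 8.89 and 9.49 with SET8 shRNA in Wnt3a medium, 12.25 and 10.48 with control shRNA in Wnt3a medium, and 11.90 and 10.63 in control medium. Both groups of control shRNA arrays were far apart within themselves, and the SET8 shRNA arrays were below all of them. The SET8 difference was -2.18 (SE 0.63), or 4.52-fold lower, with a 95% interval of -3.65 to -0.70, a limma p of 0.0098 and an adjusted p of 0.414. It was -1.29 without Wnt3a replicate 1 and -3.06 without Wnt3a replicate 2. This was the only probe set of the 86 with both SET8 shRNA arrays at least 1.5-fold from both control shRNA arrays in Wnt3a medium, against 3.16% of all probe sets. The range between the probe sets of RRM2 was 1.57, the widest of 27 genes with several tested probe sets, whose median range was 0.15.

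The other nucleotide genes did not go with RRM2. RRM1, the large subunit, was at -0.19 (SE 0.25), and TK1, the thymidine salvage kinase, at 0.15 (SE 0.25). TYMS, which makes thymidylate, read 14.95 and 15.38 with SET8 shRNA, 14.89 and 14.93 with control shRNA in Wnt3a medium and 15.25 and 14.99 in control medium. Its 3 probe sets gave 0.26, 0.11 and 0.00 in the SET8 comparison.

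**Figure D3:**
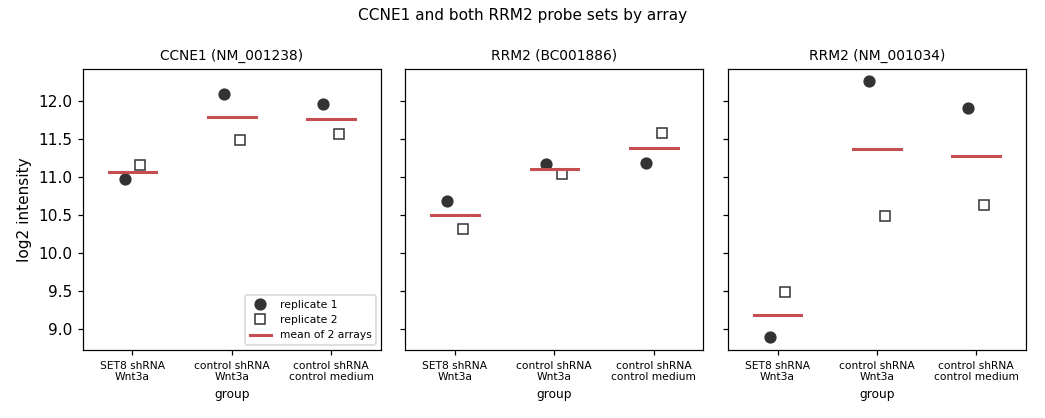
Log2 intensity (vertical axis) of CCNE1 and of both RRM2 probe sets in each array of the 3 groups. Points are single arrays (filled, replicate 1; open, replicate 2) and the bar is the mean of 2 arrays. In each panel both SET8 shRNA arrays lie below the 4 control shRNA arrays, and on NM_001034 the control shRNA arrays in Wnt3a medium stand at 12.25 and 10.48.

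Origin recognition and licensing genes were spread around 0. Of 13 tested, 8 had higher and 5 lower means with SET8 shRNA, against 50.7% higher among all genes, with a median of 0.01 and a range of -0.31 (ORC3) to 0.57 (ORC1). The helicase subunits MCM2 to MCM7 lay between -0.09 and 0.35. MCM7 (AF279900) read 15.48 and 15.01 with SET8 shRNA, 15.10 and 15.09 with control shRNA in Wnt3a medium and 15.35 and 15.21 in control medium. Its 4 probe sets gave 0.06 to 0.15. The loading factor CDC6 was at 0.26 (SE 0.27) and again at 0.26 on its further probe set.

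ORC1, the largest subunit of the origin recognition complex, had the highest value of this role. It read 9.36 and 9.66 with SET8 shRNA, 9.32 and 8.55 with control shRNA in Wnt3a medium and 9.16 and 8.97 in control medium. The difference of 0.57 (SE 0.31) came mostly from the lower Wnt3a array, and it was 0.19 without that array, replicate 2.

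Among the genes that complete the active helicase, GINS2 had the lowest SET8 difference. This subunit of the GINS complex read 11.70 and 12.01 with SET8 shRNA, 12.41 and 12.40 with control shRNA in Wnt3a medium and 12.17 and 12.56 in control medium. The groups did not overlap, and the SET8 difference was -0.55 (SE 0.25), with a limma p of 0.0655 and an adjusted p of 0.731. GINS3, another subunit, was at 0.30 (SE 0.24), with 3 probe sets between 0.30 and 0.36. GINS4, a subunit listed with the other replication genes, was at -0.04 (SE 0.28), and GINS1 was too dim to test. CDC45 read 13.00 and 12.82 with SET8 shRNA, 12.73 and 12.65 with control shRNA in Wnt3a medium and 13.07 and 12.68 in control medium. MCM10, which helps to activate the helicase, was at -0.01, with 0.20 (BC101727) and 0.40 (NM_018518) on its other probe sets. MCM8, an MCM relative with a role in recombination, was at 0.25.

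Of 14 polymerase and fork genes tested, 12 had the higher mean with SET8 shRNA, against 50.7% of all genes, with a median of 0.17. This count rested in part on the control shRNA array Wnt3a replicate 2. Among the 12, POLA1, PRIM1, POLE, PCNA, RFC2, RFC5 and LIG1 had a mean with SET8 shRNA below Wnt3a replicate 1. For none of the 14 were the arrays of the groups without overlap, against 34.4% of all genes. PCNA (NM_002592) read 13.93 and 13.81 with SET8 shRNA, 13.92 and 13.50 with control shRNA in Wnt3a medium and 13.67 and 13.33 in control medium. Its difference was 0.16 (SE 0.26), and its other probe sets gave 0.23 (SE 0.24) and 0.12 (SE 0.25). On each probe set the PCNA difference was smaller than its SE. The flap nuclease FEN1 was at 0.27 (SE 0.26) and the DNA ligase LIG1 at 0.02 (SE 0.23). The single-strand binding subunits RPA2 and RPA3 were at -0.21 and -0.26, and RPA1 was at 0.20.

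The clamp loader subunit RFC3 had the highest value of the 47 genes. It read 9.41 and 10.12 with SET8 shRNA, 9.42 and 8.37 with control shRNA in Wnt3a medium and 9.44 and 8.40 in control medium. The groups overlapped, since replicate 1 of each control shRNA group was level with the lower SET8 shRNA array. The difference was 0.87 (SE 0.48, adjusted p of 0.814 from limma), and its other probe sets BC000149 and NM_181558 gave 0.92 and 0.76. It was 0.35 without Wnt3a replicate 2 and 1.39 without Wnt3a replicate 1. RFC2, RFC4 and RFC5, which share the complex, were at 0.08, 0.17 and 0.04.

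E2F factors and chromatin genes were slightly higher in mean with SET8 shRNA, with no gene past the test. E2F1, an activator of S phase genes, read 13.03 and 13.00 with SET8 shRNA, 12.71 and 12.46 with control shRNA in Wnt3a medium and 12.96 and 13.01 in control medium. The SET8 shRNA arrays were level with the control medium arrays, and the Wnt3a arrays with control shRNA were below both. The SET8 difference was 0.43 (SE 0.23, adjusted p of 0.796 from limma) and 0.25 on the further probe set BC050369. E2F2 and E2F3 were at 0.22 and 0.19. CHAF1A, a subunit of the histone chaperone that follows the fork, read 13.41 and 13.06 with SET8 shRNA, 13.14 and 13.23 with control shRNA in Wnt3a medium and 12.86 and 13.13 in control medium. The 4 chromatin and histone mRNA genes, which also include CHAF1B, UHRF1 and SLBP, lay between 0.05 and 0.17 on their brightest probe sets. Further probe sets gave 0.31 for CHAF1A (BC067093) and 0.30 for UHRF1 (NM_013282). On the brightest probe sets of CHAF1B and UHRF1, the mean with SET8 shRNA was below the control shRNA array Wnt3a replicate 1.

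Genes with an E2F-type word in their promoter had a median SET8 difference of 0.19 over the 21 tested, and genes with a promoter but no such word a median of 0.08 over 21. In both sets 16 genes had the higher mean with SET8 shRNA, against 50.7% of all genes. Over the whole group, fewer genes were higher against Wnt3a replicate 1 than against Wnt3a replicate 2, both with control shRNA. In the Wnt3a comparison the medians were -0.05 and 0.06. CCNE1 and RRM2 belong to the genes without a word.

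**Figure D4:**
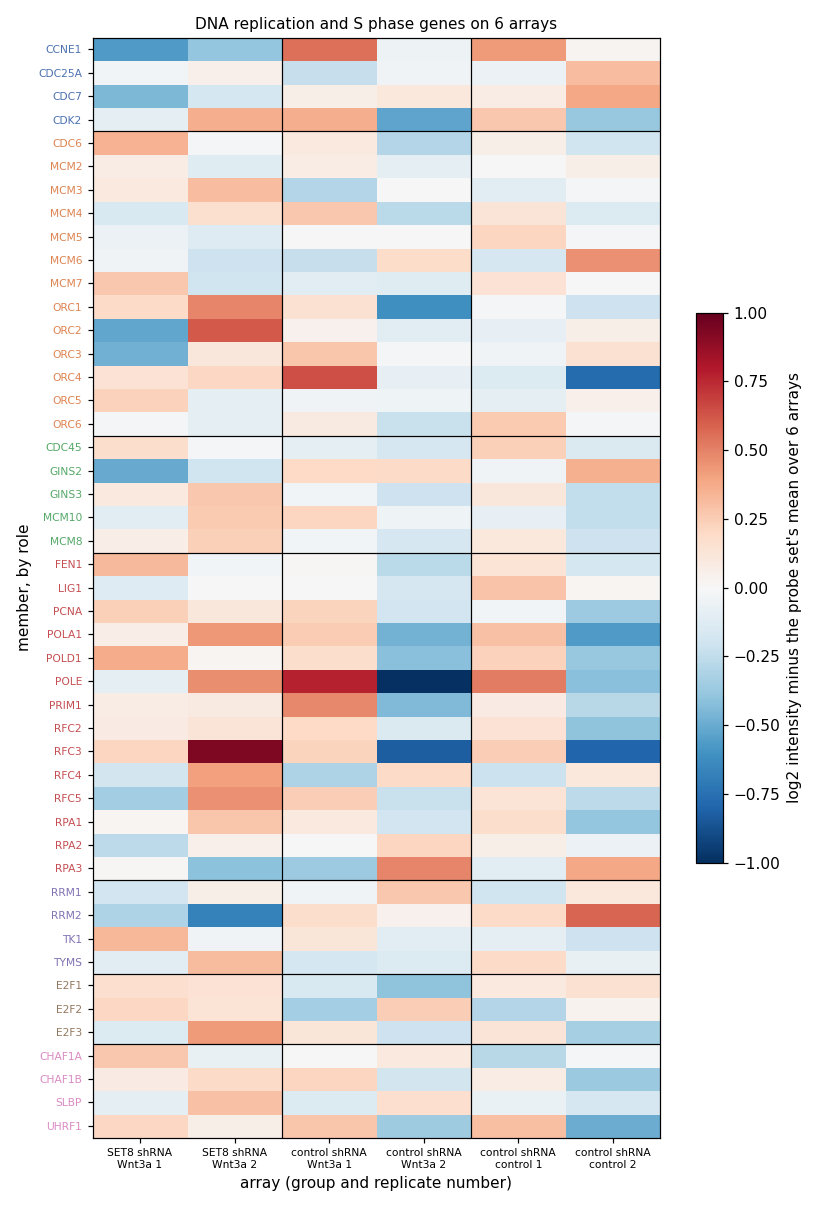
Log2 intensity of the 47 genes on each of the 6 arrays (columns, by group and replicate), as the difference from the mean of the probe set over all arrays (colour, limits at -1 and 1), with genes ordered by role (lines and label colours). RRM2 and CCNE1 are low in both SET8 shRNA columns, and POLE and RFC3 are high in replicate 1 and low in replicate 2 of both control shRNA groups.

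The second comparison set Wnt3a medium against control medium in cells with the control shRNA, to find genes that respond to Wnt3a. None of the 47 genes passed an adjusted p of 0.05, nor did any of the 13070 genes (0.0%). At an unadjusted p under 0.05 the group had 0 of 47, against 2.31% of all genes, and no gene had arrays at least 1.5-fold apart, against 0.773%. The median was -0.02, against 0.02 for all genes, and 21 of 47 genes (44.7%) had the higher mean in Wnt3a medium, against 54.0%. Of the 47, 46 were within 0.5 on the log2 scale, and the SD of 0.18 compared with 0.28 across all genes. The 95% interval lay within 2-fold either way for 44 of 47 genes (93.6%), against 71.6% of all genes. Beside this, NKD1, a feedback inhibitor of the Wnt pathway, read 11.61 and 11.63 in Wnt3a medium and 8.97 and 8.70 in control medium, both with control shRNA.

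The exception to the 0.5 limit was ORC4, an origin recognition subunit. ORC4 (BC014847) read 8.26 and 8.32 with SET8 shRNA in Wnt3a medium, 8.76 and 8.03 with control shRNA in Wnt3a medium and 7.98 and 7.34 with control shRNA in control medium. Its Wnt3a difference was 0.73 (SE 0.33, unadjusted limma p of 0.062 and adjusted p of 1), and it was 0.37 without Wnt3a replicate 1 and 1.09 without Wnt3a replicate 2. Replicate 1 of ORC4 was above replicate 2 by 0.73 in Wnt3a medium and by 0.63 in control medium, both with control shRNA. Leaving out 1 of these arrays thus also leaves its same-numbered array unmatched. The further probe set NM_002552, too dim to test, gave 0.94. At the other end stood E2F1 at -0.40 (SE 0.23), with -0.20 on its further probe set. E2F1 was among 8 of 47 genes whose arrays did not overlap, 3 higher and 5 lower in Wnt3a medium, against 21.6% of all genes. By role, medians lay between -0.08 for the cyclin E role and 0.15 for chromatin and histone mRNA, where all 4 genes had the higher mean, against 54.0% of all genes.

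In the third comparison, the SET8 shRNA arrays (in Wnt3a medium) were set against the arrays with neither the SET8 shRNA nor Wnt3a, so it holds both differences at once. It shares arrays with each of the others, and those share the Wnt3a arrays with control shRNA. None of the 47 genes passed an adjusted p of 0.05, against 0.0536% of all genes. At an unadjusted p under 0.05 stood 2 of 47, RRM2 and CCNE1, both lower, against 10.9% of all genes. For RRM2 the difference was -0.88 (SE 0.26, adjusted p of 0.265 from limma) on BC001886 and -2.08 (SE 0.63, adjusted p of 0.282) on NM_001034. Leaving out single arrays gave -2.71 to -1.44 on NM_001034. For CCNE1 the difference was -0.70 (SE 0.29, adjusted p of 0.463 from limma). RFC3 was at 0.85, and at 1.23 on BC000149 (SE 0.45, adjusted p of 0.39). On the brightest probe set no gene had arrays at least 1.5-fold apart, against 5.36% of all genes. Of the 86 probe sets, 1 did, RRM2 on NM_001034, against 5.02% of all probe sets. Arrays did not overlap for 14 of 47 genes, 7 higher and 7 lower, against 40.1%. The median was 0.17, against 0.02 for all genes, and 32 of 47 genes (68.1%) had the higher mean, against 52.2%. Leaving out control medium arrays moved the median to 0.00 (replicate 2) or 0.21 (replicate 1), and leaving out SET8 shRNA replicate 2 moved it to 0.05.

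Replicate 1 was above replicate 2 for 18 of 47 genes with SET8 shRNA, against 48.6% of all genes. It was above for 34 of 47 with control shRNA in Wnt3a medium (47.7% of all genes). With control shRNA in control medium it was above for 31 of 47 (50.5% of all genes). The median differences between replicates were -0.14, 0.23 and 0.26 in the same order, with an SD across the genes of 0.36, 0.48 and 0.40. Replicates differed by more than 1.5-fold for 5 of 47 genes with SET8 shRNA, 11 with control shRNA in Wnt3a medium and 8 in control medium, against 14.6%, 28.1% and 24.3% of all genes. For POLE (L09561), the catalytic subunit of the leading strand polymerase, replicate 1 minus replicate 2 was -0.56 with SET8 shRNA, 2.01 with control shRNA in Wnt3a medium and 0.93 in control medium. For RPA3 it was 0.42, -0.86 and -0.51. The other POLE probe sets were less far apart with control shRNA in Wnt3a medium. Replicates 1 and 2 read 11.33 and 10.58 on BC021559 and 11.14 and 10.38 on NM_006231, against 12.01 and 10.00 on L09561.

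Across the 47 genes the replicate differences of the control shRNA groups went together, with r = 0.79 and rho = 0.82, and 36 of 47 had the same sign. Those of the SET8 shRNA arrays did not, with r = -0.25 against control shRNA in Wnt3a medium and -0.21 against control medium. Across all genes r was 0.73 between the control shRNA groups, with the same sign for 10149 of 13070 genes. Between SET8 shRNA and each control shRNA group it was -0.26 across all genes. These are correlations across genes, which share arrays and are not independent replicates. The group's SET8 median differed accordingly between pairs of arrays, with -0.05 and -0.03 against Wnt3a replicate 1 and 0.17 and 0.27 against Wnt3a replicate 2.

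**Figure D5:**
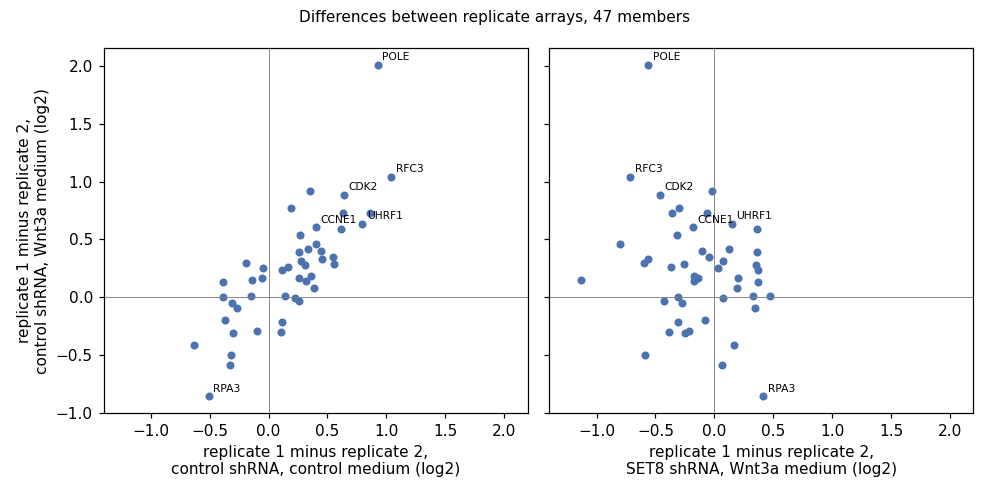
Replicate 1 minus replicate 2 in log2 intensity for each of the 47 genes, with the control shRNA group in Wnt3a medium on the vertical axes against control shRNA in control medium (left) and SET8 shRNA in Wnt3a medium (right). Points rise together on the left (r = 0.79) and not on the right (r = -0.25), and POLE, on its brightest probe set L09561, lies at 2.01 on the vertical axis.

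Of 54 other replication genes, such as CDT1, geminin, further polymerase subunits and cell cycle regulators, 46 were tested and none passed an adjusted p of 0.05 in any comparison. Of all genes, 0.0536% passed in the third comparison and 0.0% in the others. In the SET8 comparison the median of the 46 was 0.03, with 26 higher in mean, against 50.7% of all genes. At an unadjusted p under 0.05 stood 1 gene higher and 1 lower, against 7.41% of all genes in either direction. In the third comparison the median was -0.02, with 23 higher and 23 lower in mean, against 52.2% of all genes higher. In the Wnt3a comparison it was 0.04, with no gene at an unadjusted p under 0.05, against 2.31% of all genes. The higher gene of the SET8 comparison was CCNA1, a cyclin A best known from the germ line. It read 9.84 and 9.51 with SET8 shRNA, 8.76 and 8.68 with control shRNA in Wnt3a medium and 8.46 and 8.08 in control medium. Its SET8 difference was 0.96 (SE 0.25, adjusted p of 0.353 from limma) and both SET8 shRNA arrays were above all others. It was the 1 gene of the 46 with arrays at least 1.5-fold apart in the SET8 comparison and in the third. Across all genes the shares were 3.27% and 5.36%. In the third comparison CCNA1 was at 1.41, with an adjusted p of 0.102 from limma, and leaving out single arrays gave 1.22 to 1.59. The lower one was TFDP2, a dimer partner of E2F factors, at -0.59 on L40386, with -0.24 and -0.12 on its other tested probe sets.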

How the data were processed

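RNA from 6 HEK293 samples was labelled with Cy3 and measured on 1-colour NimbleGen arrays, 1 sample an array. The authors deposited 1 linear intensity per probe set and array, already summarised with RMA per the submitters' processing notes; its version and settings are not given in the sources used here. Per the file headers, positions refer to hg18, and 45031 of 45033 probe sets have 3 probes. The plan allowed for scanner signals; since the deposited values were already summarised, they were taken to log2 with no further background correction or normalisation. A RefSeq gene table gave current symbols by Entrez ID for 38916 probe sets (86.4%). No per-sample column was left unmapped (0).

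The test took 23808 probe sets of 13070 genes, those that exceeded the array median on 2 or more of the 6 arrays. limma 3.58.1 in R 4.3.3 (lmFit, eBayes) fitted 3 groups to all 6 arrays, and Benjamini-Hochberg adjustment ran over all probe sets tested. Percentages of all genes use the brightest probe set of each gene. A 2 against 2 exact permutation test cannot go below a p of 0.333 and was not used. The number of arrays limits the precision. A test on simulated data covered the SET8 comparison over 23808 probe sets. It recovered 80.5% of 200 changes of 2 and 99.0% of 200 changes of 4 on the log2 scale. All of these changes were present at once, in independent noise, which makes the adjusted threshold easier to pass. The shares therefore do not give the power in the real arrays. There, NKD1 had a Wnt3a difference of 2.79 (SE 0.25) and a limma adjusted p of 0.0911.

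The genes, roles and lists were chosen with earlier results of these data known. Array values are given for genes with an unadjusted p under 0.05 or arrays at least 1.5-fold apart, and for the brightest gene of each role, which ranks no mRNA levels. Values of further genes (such as RFC3, RFC2, GINS2, CDC7, CDK2, CCNE2, ORC1, ORC4, E2F1 and POLE) were added after they were seen. Alternatives covered the filter, the spread estimate, the arrays fitted, quantile normalisation, an offset, the threshold, the fold limit, the probe set of a gene, a replicate block and leaving out each array.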

Additional observations from a re-analysis of the deposited data

How the results depend on the processing

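For RRM2, CCNE1, GINS2, CDC7, RFC3, E2F1, ORC1, ORC4 and CCNA1, no difference changed direction through the filter, the scale or the model, while the median of the Wnt3a comparison was -0.02 and became 0.01 with all tested probe sets of a gene averaged. Over all probe sets, the count with a limma adjusted p under 0.05 was 0 in the SET8 comparison, and 19 at an adjusted p under 0.1, 15 with an intensity trend, 28 with only its 4 arrays and 0 to 31 without each array. In the Wnt3a comparison it was 0, and 2 at an adjusted p under 0.1, with the 60th percentile filter and with the trend. In the combined comparison (SET8 shRNA with Wnt3a against neither) it was 12, and 156, 52 and 31 in these settings, 45 with 32 added to each intensity, 6 after quantile normalisation, 230 with only 4 arrays, 0 with no filter and 0 to 274 without each array. Of the 47 genes, the SET8 comparison had 1 at an unadjusted p under 0.05, and 2 with the 60th percentile filter, 3 with the trend, 2 with 32 added, 0 with no filter and 0 to 3 without each array, against 7.94%, 7.32%, 7.43%, 5.25% and 4.08% to 9.17% of all genes in the same fits. The Wnt3a comparison had 0, and 0 to 1 without each array, against 1.58% to 4.08%. The combined comparison had 2, and 3 after quantile normalisation and 0 to 3 without each array, against 10.8% and 6.01% to 12.2%. Genes with arrays at least 1.5-fold apart, 0 in each comparison, numbered 1 to 3 (SET8), 0 to 1 (Wnt3a) and 1 to 4 (combined) without each array, where fewer arrays need to separate. The combined median was 0.002 to 0.21 without each array. The cause of these moves was not tested.

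Leaving out single arrays turned the Wnt3a difference of RRM2 on NM_001034 (-0.78 to 0.99), CCNE1 (-0.28 to 0.33), GINS2 (-0.16 to 0.23), CDC7 (-0.30 to 0.013), RFC3 on NM_002915 (-0.55 to 0.49) and BC000149 (-0.25 to 0.87) and ORC1 (-0.51 to 0.26), and the SET8 difference of ORC4 (-0.47 to 0.26). For the Wnt3a differences, leaving out 1 array also leaves its same-numbered control shRNA array unmatched. RFC3 on NM_002915, for example, differed between replicates by 1.04 in both control shRNA groups. Replicate numbers are shared between groups, but no label says that they mark a batch. Over all tested probe sets, deviations of same-numbered arrays correlated at 0.75 between the control shRNA groups and at -0.29 between SET8 shRNA and each of them, so the numbers were not taken as pairs. With the replicate block, the count of probe sets at an adjusted p under 0.05 was 0 in each comparison, and of the 47 genes 1 stood at an unadjusted p under 0.05 in the SET8 comparison, 1 in the Wnt3a comparison and 3 in the combined comparison, against 8.16%, 2.76% and 12.1% of all genes. The medians were the same. Few arrays and dim signals limit what can be seen: CCNE2, GINS1, POLE2 and RFC1 were not tested.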
